A study of Mus musculus with 6 samples.

Results

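Hearts of mice that carry a heart-specific JMJD2A transgene were compared with wild-type hearts over both kinds of surgery, on all 6 bead arrays of the series. The transgenic group (genotype JMJD2A-tg) held 3 arrays, 1 after sham surgery and 2 after thoracic aortic constriction (TAC). The wild-type group held 3 arrays with the same split. All animals were on the FvB background, 8 weeks old by the labels, and their hearts were taken 3 weeks after the operation. The members were chosen by the genotype named in the array titles, and no measured value entered that choice. Surgery was a covariate in every fit, so each difference below is transgenic minus wild type at equal surgery. The sources used here do not give the promoter of the transgene, the number of lines, or whether an array holds 1 animal or a pool. The p-values therefore reflect only how these samples vary, and some of that variation may be technical.

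JMJD2A, encoded by Kdm4a, is a histone demethylase that removes methyl groups from lysines of histone H3 and so acts on the transcription of other genes. TAC narrows the aorta and loads the left ventricle with pressure. Cardiomyocytes answer such a load by growing and by taking up part of the fetal gene programme. Serum response factor (SRF) and its cofactors of the myocardin family drive many contractile genes through a DNA element named the CArG box.

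Levels are given as log2 intensity of the brightest probe of each gene, always in the order sham, TAC 1 and TAC 2 within a genotype. The array medians were 56.3 to 56.4 in intensity. The tested Kdm4a probe did not separate the genotypes, at 6.70, 6.51 and 6.64 in wild type and 6.66, 6.75 and 6.45 in transgenic hearts, a difference of 0.01 ± 0.12 (adjusted p = 0.994, limma). A second probe above the filter had 6.49, 6.44 and 6.40 against 7.03, 6.86 and 6.32, a difference of 0.29, with overlap. Whether these probes can detect the transgene is not known here, so they check no label. Xist, the RNA of the inactive X chromosome, was at 5.38 on the wild-type TAC 2 array and 5.41 on the transgenic sham array, against 10.36 to 11.03 on the other 4 arrays. Both genotypes thus held 1 array of low Xist. The hearts expressed the cardiomyocyte marker Myh6, the main myosin heavy chain of adult mouse heart, at 13.89 to 14.33. The summed intensity of the 7 tested cardiomyocyte markers ran from 79634 to 81993 in wild type and from 78531 to 85540 in transgenic hearts.

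Of 11166 genes tested, 106 (0.949%) differed between the genotypes at a Benjamini-Hochberg adjusted p under 0.05 in limma. In transgenic hearts 74 of them rose (0.663% of all tested) and 32 fell (0.287%). The median rise was 1.02 and the median fall -0.99, and 56 of these genes differed by at least 1 on the log2 scale, 40 upward and 16 downward. Across all tested genes the median difference was -0.01, and all but the lowest and highest 5% of genes lay between -0.35 and 0.35. The smallest difference that passed was 0.50. In all 106 genes the arrays of the genotypes did not overlap. That held for 16.1% of all tested genes, 7.59% with transgenic arrays higher and 8.55% with them lower. For 13 of the genes that rose, the wild-type mean lay under the filter for dim genes, a log2 intensity of 5.88. Nrxn3 (5.67) and Sult4a1 (5.55) were among them, and such genes passed the filter only through their transgenic arrays. For 2 of the genes that fell, the transgenic mean lay under it. Over all 11166 tested genes the wild-type mean lay under it for 215 and the transgenic mean for 193.

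The calls rested on few arrays. Leaving out each array in turn, 17 genes passed every time, 14 that rose and 3 that fell. In alphabetical order these were Abcb4, Acta2, Alx4, Cideb, Ckmt1, Fxyd6, Hopx, Kif5c, Mns1, Nrxn3, Ric3, Rnf208, Slc9a3, Sult4a1, Tmem130, Ttr and Vgll2. The other 89 lost the call in at least 1 of these fits. The count of calls fell to 24 without either sham array, where the estimate rests on the 4 TAC arrays, to 30 without the wild-type TAC 1 array and to 32 without the wild-type TAC 2 array. It was 132 without the transgenic TAC 1 array and 474 without the transgenic TAC 2 array. For genes described below that are not among those 17, the array or arrays whose removal ended the call are named with the adjusted p-values. Both fits without a sham array give each gene the same difference and vary only in the estimate of its spread. Dusp4, Rgs6, St8sia5 and Wfikkn2 lost the call in only 1 of them. Their loss is therefore tied to neither sham array in particular.

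**Figure D1:**
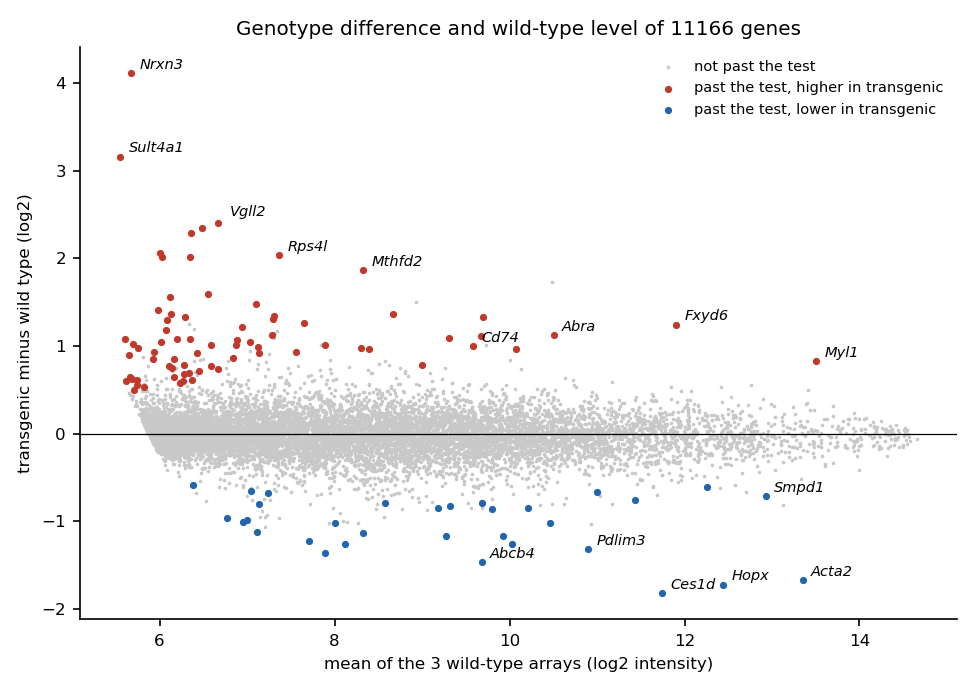
Transgenic minus wild-type difference (log2, vertical axis) against the mean of the 3 wild-type arrays (log2 intensity, horizontal axis), 1 point per tested gene, red for the 74 that rose, blue for the 32 that fell and grey for the rest. Many red points sit at wild-type levels near the dim end of the scale, whereas Ces1d, Hopx and Acta2, the largest falls, sit at bright wild-type levels.

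The 2 largest rises were those of Nrxn3 and Sult4a1, genes best known from neurons. Nrxn3 encodes neurexin 3, a presynaptic adhesion protein. It stood at 5.76, 5.74 and 5.51 in wild-type hearts and at 10.15, 9.71 and 9.49 in transgenic hearts. All wild-type arrays were near or under the array median and all transgenic arrays lay far above it. The difference of 4.11 ± 0.16 (SE, adjusted p = 9.1e-06, limma) is given with no fold, since the wild-type values were at or under the array median. It was 5.72 with each array's 5th percentile subtracted as background and 2.66 with the median over the gene's 4 probes, and passed in both. Sult4a1, a sulfotransferase-family gene of the brain, had 5.55, 5.63 and 5.47 in wild type and 9.03, 8.38 and 8.73 in transgenic hearts, a rise of 3.16 ± 0.16 (adjusted p = 5.04e-05, limma). Again the genotypes were far apart and the wild-type arrays dim.

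Ric3, a chaperone of nicotinic acetylcholine receptors, had 6.04, 6.24 and 6.06 against 7.93, 7.71 and 7.39, a rise of 1.56 ± 0.16 (adjusted p = 0.00232, limma). The highest value was that of the transgenic sham array. Syn2, encoding the synaptic vesicle protein synapsin II, had 7.77, 7.90 and 8.01 against 9.13, 8.97 and 8.64, a rise of 1.02 ± 0.17 (adjusted p = 0.0324, limma). Its call was lost without any 1 of the wild-type arrays or the transgenic sham array (adjusted p 0.129 to 0.367). With the median over its 3 probes the direction turned, to -0.13 (adjusted p = 0.673), and its other probe above the filter was at -0.13. These 4 genes were the members of a list of 15 tested synapse and neuronal genes that passed. In that list 10 members were higher and 5 lower, and the list median of 0.05 was near that of all genes. Lists were drawn up with earlier results of these data known. Their counts of calls and of directions, here and below, are therefore no independent evidence. Over all tested genes 0.949% passed.

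Further genes that rose were in no list, and no count of such genes was tested. Kif5c, a neuronal kinesin heavy chain, rose by 1.41 ± 0.14 (adjusted p = 0.0023, limma). Sh3gl2, the endocytic protein endophilin A, rose by 1.34, and Abat, which breaks down the transmitter GABA, by 1.37. The homeobox and POU factors En2 and Pou3f1 rose by 1.07 and 1.04, and the glutamate transporter Slc1a2 by 1.07. Sh3gl2 and Slc1a2 did not keep their sign in every alternative, and had adjusted p-values of 0.8 and 0.86 with the median over their probes. Smaller rises were those of St8sia5 (0.98), Septin3 (0.68) and Syt12 (0.65). Of these, Kif5c alone kept its call in every fit with 1 array left out. Sh3gl2, Pou3f1 and Slc1a2 lost it without any 1 of the wild-type arrays or the transgenic sham array (adjusted p 0.0909 to 0.16, 0.0985 to 0.225 and 0.0547 to 0.198). Abat and En2 lost it without the wild-type sham, wild-type TAC 1 or transgenic sham array (0.0713 to 0.11 and 0.0609 to 0.084). St8sia5 lost it without the wild-type sham array (0.0592), and Septin3 and Syt12 lost it without any 1 of the arrays other than transgenic TAC 2 (0.0519 to 0.235 and 0.0504 to 0.235).

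Of 4 tested neuron and glia markers 3 were lower in transgenic hearts, and their summed intensity was 660 to 720 in wild type and 556 to 677 in transgenic hearts. Dbh, the enzyme that makes noradrenaline in sympathetic nerves, fell, from 6.95, 6.58 and 6.79 to 5.91, 5.86 and 5.67. All transgenic values lay below all wild-type values, with a difference of -0.96 ± 0.11 (adjusted p = 0.0045, limma). Tac1, the precursor of substance P, fell by 0.58, and Pirt, a membrane protein of sensory neurons, by 1.02. Dbh lost its call without either sham array (adjusted p 0.0516 and 0.0712), Tac1 and Pirt without any 1 of the wild-type arrays or the transgenic sham array (0.0742 to 0.237 and 0.0647 to 0.283). In RNA of whole hearts, fewer cells of a type and less RNA per cell cannot be told apart.

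Vgll2 and Alx4, regulators of development, rose. Vgll2, a cofactor of Tead transcription factors in skeletal muscle, had 6.31, 7.04 and 6.65 in wild type and 8.40, 9.20 and 9.62 in transgenic hearts. Both genotypes had their lowest value on the sham array, and the difference was 2.41 ± 0.19 (adjusted p = 0.000727, limma). Alx4, a homeobox gene of limb and skull patterning, had 6.34, 5.94 and 5.80 against 7.65, 8.22 and 8.27, a rise of 2.02 ± 0.21 (adjusted p = 0.00267, limma). Its transgenic sham array was the lowest of the 3 transgenic arrays. The other 7 tested genes of the Vgll and Tead list did not pass, among them Tead1 (0.42 ± 0.14, adjusted p = 0.27) and Yap1 (0.39 ± 0.16, adjusted p = 0.39). The list had 6 of 8 members higher and a median of 0.30. Of 13 homeobox and patterning genes tested, Alx4 passed, 9 were higher and the median was 0.09.

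Tbx1 (0.69), a T-box factor of the outflow tract, Dmrta2 (0.56), a factor of forebrain patterning, and the kidney factor Tfcp2l1 (1.08) rose less. Each was lost without any 1 of the wild-type arrays or the transgenic sham array (adjusted p 0.16 to 0.261, 0.16 to 0.285 and 0.0568 to 0.155). Factors that set cardiac identity did not pass. Of 17 tested, 8 were higher and 9 lower with a median of -0.01, and Nkx2-5 differed by -0.01 ± 0.18 (adjusted p = 0.995, limma).

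Other rises outside the lists were the following. Egf, the epidermal growth factor, rose by 1.37 ± 0.24 (adjusted p = 0.0361, limma) and Nrg1, the ErbB ligand neuregulin, by 0.63 ± 0.11 (adjusted p = 0.0408, limma). The other probe of Egf, also above the filter, differed by 0.08, with overlap. The rise was 1.13 for Etv5, an ETS transcription factor, 1.08 for Dusp4, a phosphatase of MAP kinases, and 1.09 for Phlda1. Dusp4 lost its call without the wild-type sham array (adjusted p = 0.0654). Egf, Nrg1, Phlda1 and Etv5 lost theirs without any 1 of the wild-type arrays or the transgenic sham array (adjusted p 0.0974 to 0.261, 0.0921 to 0.238, 0.216 to 0.312 and up to 0.454), and Etv5 also without the transgenic TAC 1 array (0.0685).

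The immediate early gene Egr1 had 9.69, 10.47 and 10.05 in wild type and 10.75, 11.45 and 10.92 in transgenic hearts. The lowest transgenic value lay above the highest wild-type value by a small margin, and the rise was 0.97 ± 0.17 (adjusted p = 0.0408, limma). The call was lost without any 1 of the arrays other than transgenic TAC 2 (adjusted p 0.0536 to 0.35). Of 14 immediate early genes tested, Egr1 passed, 9 were higher and the median was 0.21. Egr2 (0.84 ± 0.20, adjusted p = 0.108), Egr3 (1.01 ± 0.26, 0.14) and Fos (1.25 ± 0.36, 0.198) did not pass.

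**Figure D2:**
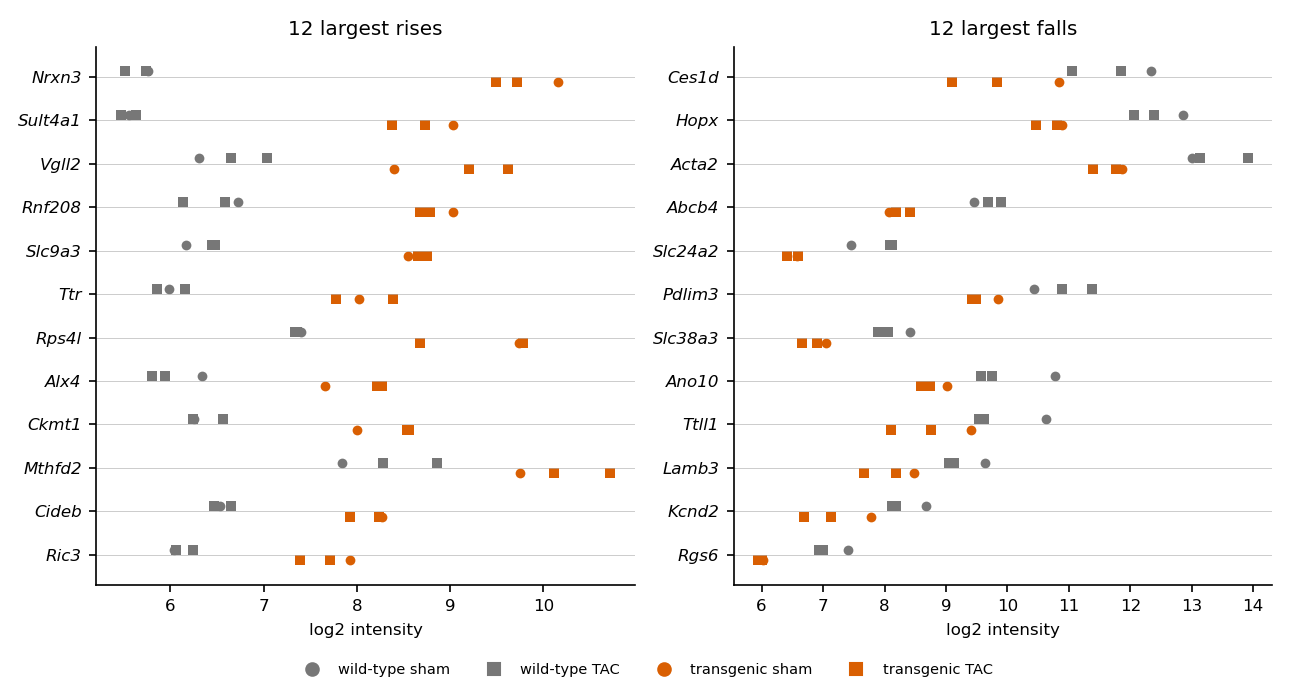
Log2 intensity (horizontal axis) on each of the 6 arrays for the 12 largest rises (left) and the 12 largest falls (right), grey for wild type and orange for transgenic, circles for sham and squares for TAC. In every row the 3 transgenic points lie on 1 side of the 3 wild-type points, with the widest gap for Nrxn3, from 5.76 to 9.49.

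The 3 genes Mthfd2, Shmt1 and Asns, which supply one-carbon units and asparagine, rose. Mthfd2, a mitochondrial enzyme of folate metabolism, had 7.84, 8.86 and 8.28 in wild type and 9.75, 10.11 and 10.72 in transgenic hearts. Both genotypes were lowest after sham surgery and did not overlap, with a rise of 1.86 ± 0.21 (adjusted p = 0.00393, limma). Shmt1, the cytosolic serine hydroxymethyltransferase, had 7.36, 6.89 and 7.16 against 8.36, 7.92 and 7.88, a rise of 0.92 ± 0.14 (adjusted p = 0.0232, limma). Asns, asparagine synthetase, had 7.49, 7.81 and 7.39 against 8.26, 8.54 and 8.67, a rise of 0.93 ± 0.16 (adjusted p = 0.0376, limma). Mthfd2 lost its call without either sham array (adjusted p 0.0574 and 0.0633), Shmt1 and Asns without any 1 of the wild-type arrays or the transgenic sham array (0.0925 to 0.295 and 0.123 to 0.257).

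Mthfd2 and Asns are known targets of the stress-induced factor ATF4. In the list of 22 tested ATF4 targets of folate, serine and amino acid supply, 15 were higher and 7 lower, the median was 0.11, and the same 3 genes passed. Without overlap, 5 members of the list were higher and 1 was lower, against 7.59% and 8.55% of all tested genes. Ddit3, the factor CHOP of the same stress response, was lower on every transgenic array, at -0.37 ± 0.13 (adjusted p = 0.302, limma). The composite element through which ATF4 acts begins TGATGNAA. The 150 bases before the RefSeq start of Asns (GRCm38.p6, chr6:7693210-7693359, minus strand) are shown because they hold 1 match, in capitals, from -23 to -16.

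Asns: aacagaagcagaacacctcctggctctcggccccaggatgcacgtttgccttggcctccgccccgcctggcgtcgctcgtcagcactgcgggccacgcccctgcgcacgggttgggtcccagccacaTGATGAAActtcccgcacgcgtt

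The stretches of the same length before Mthfd2 and Shmt1 held no match. Over windows of 300 bases (250 before to 50 after the start, both strands), 2.84% of the 8977 tested genes with a RefSeq promoter held TGATGNAA. Among genes that rose these were 2 of 50, Asns and Fam205c, and among genes that fell 2 of 26, Pdlim3 and Smpd1. A match is a description of the letters and no binding site.

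Genes known for secretion by the liver or choroid plexus included 2 that rose. Ttr, the thyroxine carrier transthyretin, had 5.99, 6.16 and 5.85 in wild type and 8.02, 8.39 and 7.77 in transgenic hearts, a rise of 2.06 ± 0.18 (adjusted p = 0.00134, limma). Cp, the copper protein ceruloplasmin, had 9.40, 9.96 and 9.68 against 10.59, 10.92 and 10.86, a rise of 1.11 ± 0.13 (adjusted p = 0.00573, limma). Cp was thus well expressed in both genotypes, whereas Ttr was dim in wild type. Cp lost its call without the wild-type sham, wild-type TAC 2 or transgenic sham array (adjusted p 0.0647 to 0.0952). Of 8 tested liver-type plasma protein genes 5 were higher and 3 lower, with a median of 0.09, and Hp, haptoglobin, differed by -0.31 ± 0.14 (adjusted p = 0.454, limma).

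Enzymes and transporters of energy and lipid metabolism moved in both directions. Ckmt1, the ubiquitous mitochondrial creatine kinase of brain and other tissues, had 6.25, 6.56 and 6.24 in wild type and 8.00, 8.54 and 8.56 in transgenic hearts. The rise was 2.02 ± 0.16 (adjusted p = 0.000727, limma). The heart's own mitochondrial isoform Ckmt2 had a difference of 0.02 ± 0.07 (adjusted p = 0.961), and the cytosolic Ckm had -0.33 ± 0.10 (adjusted p = 0.216). The 6 genes of the creatine list were split evenly, with a median of -0.04.

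Cideb, a lipid droplet and lipoprotein gene of the liver, rose from 6.53, 6.47 and 6.65 to 8.27, 8.24 and 7.93, by 1.60 ± 0.15 (adjusted p = 0.00202, limma). Ces1d, a carboxylesterase that hydrolyses stored triglyceride, gave the largest fall. It had 12.33, 11.04 and 11.85 in wild type and 10.83, 9.84 and 9.10 in transgenic hearts, a narrow gap between the lowest wild-type and the highest transgenic value. The fall of 1.82 ± 0.25 (adjusted p = 0.0118, limma) lost its call without the wild-type sham, wild-type TAC 2 or transgenic sham array (adjusted p 0.0533 to 0.0726). These were the 2 called members of 20 lipid-handling genes, of which 10 were higher and 10 lower. Fads6, a member of the fatty acid desaturase family, rose by 1.48 and Acsl6, an acyl-CoA synthetase, by 0.98. Fads6 was lost without either sham array (0.0675 and 0.0747) and Acsl6 without any 1 of the arrays other than transgenic TAC 2 (0.064 to 0.365).

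Among transporters, Slc9a3, the sodium-proton exchanger of gut and kidney epithelium, had 6.17, 6.44 and 6.47 against 8.55, 8.65 and 8.76. It had the smallest SE of the 12 largest rises, at 2.29 ± 0.13 (adjusted p = 0.000113, limma). Abcb4, a phospholipid transporter of bile canaliculi, fell from 9.46, 9.69 and 9.90 to 8.07, 8.18 and 8.41, by 1.46 ± 0.14 (adjusted p = 0.0023, limma). Slc38a3, a glutamine transporter, fell from 8.41, 7.90 and 8.06 to 7.06, 6.90 and 6.65, by 1.25 ± 0.14 (adjusted p = 0.00461, limma). The call of Slc38a3 was lost without the wild-type sham, wild-type TAC 2 or transgenic sham array (adjusted p 0.0514 to 0.0947). In the list of 17 carriers and cassette transporters these 3 passed, 8 members were higher and 9 lower, and the median was -0.01.

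Several genes of the contractile apparatus and its control rose. Myl1, a myosin light chain of fast skeletal muscle, had 13.63, 13.50 and 13.39 in wild type and 14.18, 14.41 and 14.43 in transgenic hearts. Its rise of 0.83 ± 0.10 (adjusted p = 0.00855, limma) came at the top of the intensity scale, where a difference can be compressed. Tmod4, a tropomodulin of skeletal muscle that caps actin filaments, rose from 9.93, 9.17 and 9.9996 to 11.25, 10.97 and 10.86, by 1.33 ± 0.20 (adjusted p = 0.0173, limma). Abra, an actin-binding protein of striated muscle, rose by 1.13 and Mylk2, the skeletal myosin light chain kinase, by 0.61. Fxyd6, a regulator of the sodium pump, rose from 11.88, 12.09 and 11.75 to 12.93, 13.24 and 13.28, by 1.25 ± 0.12 (adjusted p = 0.0023, limma).

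Myl1 lost its call without either wild-type TAC array (adjusted p 0.0657 and 0.0731) and Tmod4 without the wild-type sham, wild-type TAC 1 or transgenic sham array (0.0547 to 0.169). Abra and Mylk2 lost theirs without any 1 of the wild-type arrays or the transgenic sham array (0.0524 to 0.0683 and 0.0671 to 0.354). The 5 tested skeletal muscle markers summed to 11534 to 15698 in wild type and 9562 to 12684 in transgenic hearts. Of 24 sarcomere and Z-disc genes 13 were higher and 11 lower, with a median of 0.03, and Pdlim3 was the called member.

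Pdlim3, a protein that binds alpha-actinin at the Z-disc and in smooth muscle, had 10.44, 11.37 and 10.88 in wild type and 9.85, 9.42 and 9.49 in transgenic hearts. Its fall of 1.31 ± 0.23 (adjusted p = 0.0363, limma) was lost without the wild-type TAC 1, wild-type TAC 2 or transgenic TAC 1 array (adjusted p 0.0504 to 0.196). The genes by which hypertrophy is usually graded did not pass. Nppa and Nppb, the natriuretic peptide genes, differed by 0.16 ± 0.12 (adjusted p = 0.681) and 0.14 ± 0.08 (0.605). Both read near the top of the scale after TAC, where a difference can be compressed, as for Myl1. Myh7, the slow myosin heavy chain, had 7.31, 10.88 and 8.61 in wild type and 9.59, 11.72 and 9.995 in transgenic hearts, which overlap, and a difference of 1.504 ± 0.59 (0.372). Fhl1 had 12.56, 13.97 and 13.71 in wild type and 13.65, 14.15 and 13.95 in transgenic hearts, which overlap. Its difference was 0.50 ± 0.17 (adjusted p = 0.28, limma), and its TAC arrays also read near the top of the scale.

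Nmrk2, the muscle nicotinamide riboside kinase, came close to the threshold, at 8.89, 11.63 and 10.95 in wild type and 11.87, 12.42 and 12.39 in transgenic hearts (1.74 ± 0.33, adjusted p = 0.0527, limma). Its wild-type sham array stood far below the rest. Another gene of NAD synthesis, Naprt, was lower on all transgenic arrays (-0.80 ± 0.15, adjusted p = 0.0524). Of 16 fetal and hypertrophic genes tested, 12 were higher and 4 lower, the median was 0.15, and the 1 member that passed, Acta2, fell.

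Hopx and Acta2 were the largest falls among genes tied to SRF. Hopx is a homeodomain protein without DNA binding that restrains SRF-dependent transcription in the heart. It had 12.86, 12.06 and 12.39 in wild type and 10.89, 10.80 and 10.47 in transgenic hearts. Every transgenic value lay more than 1 unit below every wild-type value, and the fall was 1.72 ± 0.15 (adjusted p = 0.00134, limma), with wild type 3.29-fold over transgenic. Acta2, smooth muscle alpha-actin, had 13.01, 13.91 and 13.13 against 11.87, 11.40 and 11.77, a fall of 1.67 ± 0.23 (adjusted p = 0.0118, limma). Its highest value was on the wild-type TAC 1 array. Without that array the fall was 1.37 (adjusted p = 0.0272).

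Other members of the pathway were given by lists. Of 8 SRF and myocardin-family regulators 2 were higher and 6 lower, the median was -0.10, and Hopx was the called one. Fhl2, a cofactor of striated muscle, had 13.26, 12.96 and 13.15 in wild type and 12.76, 12.39 and 11.77 in transgenic hearts (-0.82 ± 0.17, adjusted p = 0.0765, limma). Myocd, myocardin itself, had 10.84, 10.33 and 10.77 against 10.07, 9.64 and 10.03 (-0.73 ± 0.16, adjusted p = 0.0988, limma). Both genes were lower without overlap, as were 8.55% of all tested genes, but neither passed. Of 22 SRF and MRTF target genes 8 were higher and 14 lower, with a median of -0.16. Egr1 rose and Acta2 fell, whereas Acta1 (-0.41 ± 0.08, adjusted p = 0.0555) and Actg2 (-1.06 ± 0.22, 0.0771) did not pass.

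Of 8 tested smooth muscle and pericyte markers 7 were lower, the median was -0.44, and Acta2 was the called one. Smtn, Tagln and Myh11 differed by -0.60 ± 0.18 (adjusted p = 0.203), -0.43 ± 0.15 (0.295) and -0.51 ± 0.27 (0.536). The summed intensity of the list was 25071 to 35966 in wild type and 17693 to 24467 in transgenic hearts, without overlap. Without Acta2, a choice made after seeing the data, the other 7 markers overlapped, at 16825 to 20600 in wild type and 14992 to 20972 in transgenic hearts, with 6 of 7 lower and a median of -0.43. Endothelial markers had 6 of 7 members lower with a median of -0.24, and sums of 17698 to 21227 against 15040 to 21106. The atrial genes Sln, Myl7 and Myl4 were highest on the wild-type TAC 1 array, at 10.50, 9.09 and 12.48, against at most 8.09, 7.15 and 10.80 on the other arrays. The 6 tested atrial markers summed to 10845 to 29347 in wild type and 16011 to 24853 in transgenic hearts. The part of these cell types in the falls of Acta2 and Pdlim3 was not tested.

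Promoter letters of Hopx, Acta1 and Acta2 are shown because the 3 genes belong to the SRF lists and differ in whether an exact CArG box lies near the start. Each line holds the 150 bases before a RefSeq start in GRCm38.p6, on the minus strand, with the exact CArG box (CC, 6 bases that are A or T, then GG) in capitals. Hopx is given at its start with a match (chr5:77115124-77115273), from -83 to -74. Acta1 (chr8:123894776-123894925) has its match from -73 to -64, and Acta2 (chr19:34255374-34255523) has no exact match but 2 stretches 1 base off it, in lower case, from -84 to -75 and from -34 to -25.

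Hopx: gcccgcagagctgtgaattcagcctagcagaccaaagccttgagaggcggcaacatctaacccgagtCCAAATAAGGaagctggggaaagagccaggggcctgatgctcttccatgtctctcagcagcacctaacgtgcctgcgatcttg
Acta1: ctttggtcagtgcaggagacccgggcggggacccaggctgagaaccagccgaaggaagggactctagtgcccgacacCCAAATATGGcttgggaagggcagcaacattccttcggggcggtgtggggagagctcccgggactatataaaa
Acta2: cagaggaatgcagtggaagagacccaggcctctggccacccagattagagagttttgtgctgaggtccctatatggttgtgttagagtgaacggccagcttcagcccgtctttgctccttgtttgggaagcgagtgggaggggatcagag

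The other RefSeq start of Hopx held no exact or 1-base-off CArG box in its stretch. Among all 8977 tested genes with a promoter entry, 1.76% held a CArG box on either strand of the 300-base window. None of the 50 genes with an entry that rose held one, and 2 of the 26 that fell did, Hopx and Itgb6. The MEF2 site was found in 1 of 50 and 0 of 26, against 2.41% of all. The letters TATAAA were found in 7 of 50 genes that rose, 2 of 26 that fell and 9.78% of all, and GGGCGG in 62.0%, 65.4% and 66.9%. Windows rich in CpG (over 50% GC and over 0.6 of the CpG count that base composition gives) belonged to 52.0% of genes that rose, 65.4% of genes that fell and 68.7% of all.

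The members of the ion channel and calcium cycling lists that passed fell. Kcnd2, a potassium channel subunit of the transient outward current, had 8.68, 8.18 and 8.12 in wild type and 7.78, 7.13 and 6.69 in transgenic hearts, a fall of 1.13 ± 0.17 (adjusted p = 0.0165, limma). Ano10, of the anoctamin family, had 10.77, 9.57 and 9.75 against 9.01, 8.73 and 8.59, a fall of 1.25 ± 0.18 (adjusted p = 0.0142, limma). Slc24a2, a potassium-dependent sodium-calcium exchanger, had 7.45, 8.12 and 8.09 against 6.57, 6.41 and 6.59, a fall of 1.36 ± 0.17 (adjusted p = 0.00859, limma). The gap was narrow for Kcnd2 and Ano10 and wide for Slc24a2. Kcnd2 and Ano10 lost the call without any 1 of the wild-type arrays or the transgenic sham array (adjusted p 0.107 to 0.132 and 0.0547 to 0.162), Slc24a2 without either wild-type TAC array (0.0657 and 0.0699). With the median over all probes of the gene, the difference of Ano10 was 0.01 and that of Slc24a2 -0.02.

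Among 22 ion channel genes 10 were higher and 12 lower with a median of -0.02, and among 21 calcium cycling genes 9 and 12 with the same median. Lrrc8a, the volume-regulated anion channel, fell by 0.82 outside the lists and lost its call without any 1 of the wild-type arrays or the transgenic sham array (adjusted p 0.202 to 0.263). Its second bright probe went the other way, at 8.36, 8.20 and 8.33 in wild type and 8.58, 8.44 and 8.63 in transgenic hearts, and the median over probes had an adjusted p of 0.49. Rgs6, which speeds the switching off of inhibitory G proteins and shapes the vagal control of heart rate, had 7.40, 6.99 and 6.93 in wild type and 6.02, 5.94 and 6.01 in transgenic hearts. Transgenic values were close together near the dim end, and the fall was 1.12 ± 0.12 (adjusted p = 0.00391, limma). It lost its call without the transgenic sham array (0.0636). Prkg1, the kinase activated by cyclic GMP, fell by 0.79 ± 0.14 (adjusted p = 0.0376, limma), lost without any 1 of the arrays other than transgenic TAC 2 (0.0505 to 0.379).

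Lamb3 and Itgb6, genes of cell attachment, fell. Lamb3, a laminin beta chain of epithelial basement membranes, had 9.64, 9.05 and 9.13 in wild type and 8.47, 8.19 and 7.67 in transgenic hearts, a fall of 1.16 ± 0.17 (adjusted p = 0.0142, limma). Itgb6, an integrin beta chain that takes part in the activation of TGF-beta, had 9.64, 8.99 and 8.93 against 8.63, 8.30 and 8.10, a fall of 0.84 ± 0.14 (adjusted p = 0.0354, limma). Both lost the call without any 1 of the wild-type arrays or the transgenic sham array (adjusted p 0.0977 to 0.176 and 0.182 to 0.406). In the list of 21 laminins, integrins and basement membrane genes 7 were higher and 14 lower, with a median of -0.15. No member of the list of 40 matrix genes passed, and 20 were higher and 20 lower. No member had genotypes without overlap, against 16.1% of all tested genes.

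Further falls were Ttll1, a tubulin polyglutamylase subunit (10.63, 9.53 and 9.62 against 9.41, 8.76 and 8.11, -1.17 ± 0.18, adjusted p = 0.0207, limma), and the brighter genes Smpd1 (acid sphingomyelinase, -0.71), Apbb1 (-1.02), Psme1 (an activator of the proteasome, -0.61) and Ptp4a3 (-0.67). For Ttll1 the gap was narrow, from 9.41 on the transgenic sham array to 9.53 on the wild-type TAC 1 array. Ttll1, Smpd1, Apbb1 and Ptp4a3 lost the call without any 1 of the wild-type arrays or the transgenic sham array (adjusted p 0.118 to 0.219, 0.0657 to 0.188, 0.0524 to 0.301 and 0.254 to 0.311), and Psme1 also without transgenic TAC 1 (0.0519 to 0.301). Ogdhl, a relative of the oxoglutarate dehydrogenase of the citric acid cycle, fell by 1.00 and Wfikkn2, an inhibitor of myostatin, by 0.99. Ogdhl was lost without the wild-type sham, wild-type TAC 2 or transgenic sham array (0.0731 to 0.11), Wfikkn2 without the transgenic sham array (0.0636). Another probe of Wfikkn2 above the filter differed by 0.12, and the median over its probes had an adjusted p of 0.99.

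Of the genes of MHC class II antigen presentation 1 passed. Cd74, the invariant chain of MHC class II, had 9.04, 9.58 and 10.11 in wild type and 10.46, 10.74 and 10.53 in transgenic hearts. The rise of 1.00 ± 0.19 (adjusted p = 0.0495, limma) lay at the threshold and was lost without any 1 of the arrays other than transgenic TAC 2 (adjusted p 0.0514 to 0.445). All 6 tested genes of the list were higher, with a median of 0.60. Without overlap were 3 of them (7.59% of all tested genes were higher without overlap), among them H2-DMa (0.69 ± 0.19, adjusted p = 0.172, limma). All 9 tested macrophage markers were higher too, with a median of 0.23 and none called. Their summed intensity was 3697 to 5311 in wild type and 5289 to 6613 in transgenic hearts, which overlap. The part of macrophage RNA in the level of Cd74 was not tested. Lag3, a receptor on activated T cells that binds MHC class II, rose by 0.78 and lost its call without any 1 of the wild-type arrays or the transgenic sham array (0.117 to 0.169). The T cell markers Cd3e and Cd3d lay between 5.82 and 6.32.

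Most other lists gave no call. Fatty acid oxidation (28 tested, median -0.03), the citric acid cycle (17, -0.01), oxidative phosphorylation (48, -0.05) and glycolysis (22, 0.01) had medians close to that of all genes. Heat shock genes had 13 of 16 members higher and a median of 0.14, with Hspa1a at 1.09 ± 0.29 (adjusted p = 0.149, limma). Antioxidant genes had 18 of 23 higher (median 0.09) and ER stress genes 12 of 15 (0.08). Of 13 clock genes 3 were lower without overlap, Ciart (-1.01 ± 0.27, adjusted p = 0.157, limma), Dbp (-0.66 ± 0.19, 0.198) and Nr1d1 (-0.54 ± 0.19, 0.306), and none passed. Over all tested genes 8.55% were lower without overlap. Genes of the calcineurin and NFAT list, which holds calcineurin subunits, NFAT factors and their partners, had 9 of 11 members lower (median -0.11). The differences in this list ran from -0.28 to 0.53. Insulin signalling genes had 14 of 21 members lower (median -0.13). Interferon-induced genes had 13 of 18 members higher (median 0.07), cell cycle genes 15 of 21 (0.04) and proteasome genes 14 of 23 (0.06), while FGF signalling genes were split 6 to 6 (0.01). The 11 tested histone demethylases, Kdm4a among them, had a median of 0.08. All 9 fibroblast markers were higher with a median of 0.17, and their sums overlapped, at 17360 to 25521 against 19054 to 27643.

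**Figure D3:**
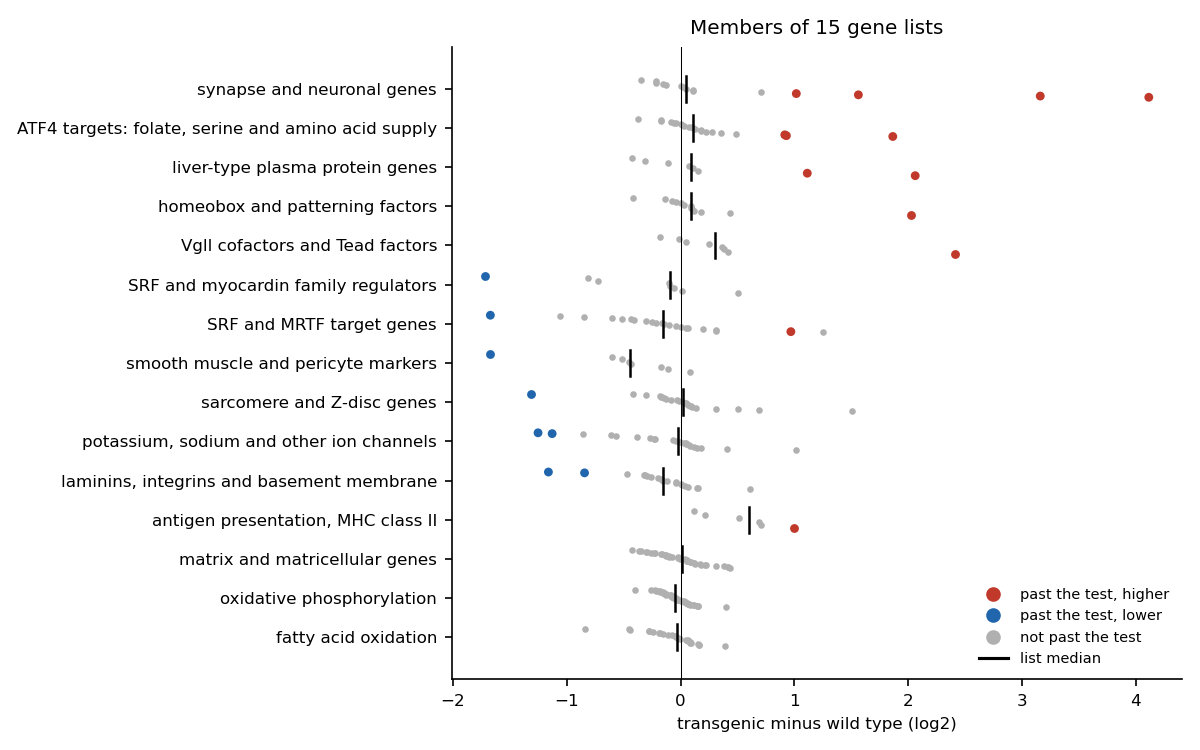
Transgenic minus wild-type difference (log2, horizontal axis) of each tested member of 15 lists, red or blue where the member passed the test and grey otherwise, with a black bar at the list median. List medians lie close to 0 for most lists, with 0.60 for MHC class II and -0.44 for smooth muscle markers, and most calls are members far from the rest of their list.

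Of 28 ribosomal protein genes 1 passed. Rps4l, a relative of Rps4x, had 7.40, 7.33 and 7.36 in wild type and 9.74, 9.79 and 8.68 in transgenic hearts. Wild-type values were close together and the transgenic TAC 2 array was lowest of its group, and the rise was 2.04 ± 0.26 (adjusted p = 0.00859, limma). Its call was lost without any 1 of the wild-type arrays or the transgenic sham array (adjusted p 0.0606 to 0.109). Rps4x itself had 0.08 ± 0.11 (adjusted p = 0.853), and the list median was -0.02. Probe sequences were not used here, so signal shared between such near copies, or within the families of Gsta1 (1.33), Hamp2 (0.93) and Ces1d, cannot be told apart. Gsta1 and Hamp2 also lost the call without several of the wild-type arrays or the transgenic sham array (adjusted p 0.0547 to 0.0839 and 0.0742 to 0.142). Rnf208, a ubiquitin ligase of the RING type, rose from 6.72, 6.59 and 6.14 to 9.03, 8.67 and 8.78, by 2.34 ± 0.16 (adjusted p = 0.000323, limma).

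The genotype difference was then compared between the surgeries. The 106 genes had the same sign in the sham pair and in the TAC means, which the absence of overlap already fixes. In 61 of them the difference was larger in absolute size in the sham pair. That pair holds 1 array per genotype, against means of 2 arrays after TAC, and so varies more by design. The share over all tested genes was not counted, so the count does not show a larger genotype difference in sham hearts. The median of the genes that rose was 1.09 in the sham pair, 1.01 on the transgenic TAC 1 array and 0.89 on the transgenic TAC 2 array against the wild-type TAC mean, and that of the genes that fell was -0.97, -0.84 and -1.01. The interaction of genotype and surgery passed for 0 of 11166 genes (0%) in limma, with an unadjusted p under 0.05 for 183. Each sham group holds 1 array, which this fit assumes to vary like the TAC arrays. The wild-type sham array was high in Xist and the transgenic sham array low, so in the sham pair genotype and Xist level cannot be told apart. With Xist as a covariate 5 genes passed the interaction test, in a fit that leaves 1 residual degree of freedom.

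Among the 106 genes, 3 had an unadjusted interaction p under 0.05, each with an adjusted p of 1. Alx4 differed by 1.31 in sham and 2.37 after TAC (interaction 1.06 ± 0.31). Egf went the other way, with 2.07 and 1.02 (-1.06 ± 0.39). Pdlim3 differed by -0.59 and -1.67 (-1.08 ± 0.36). For Hopx the differences were -1.97 and -1.59, for Acta2 -1.14 and -1.94, and for Nrxn3 4.39 and 3.97.

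**Figure D4:**
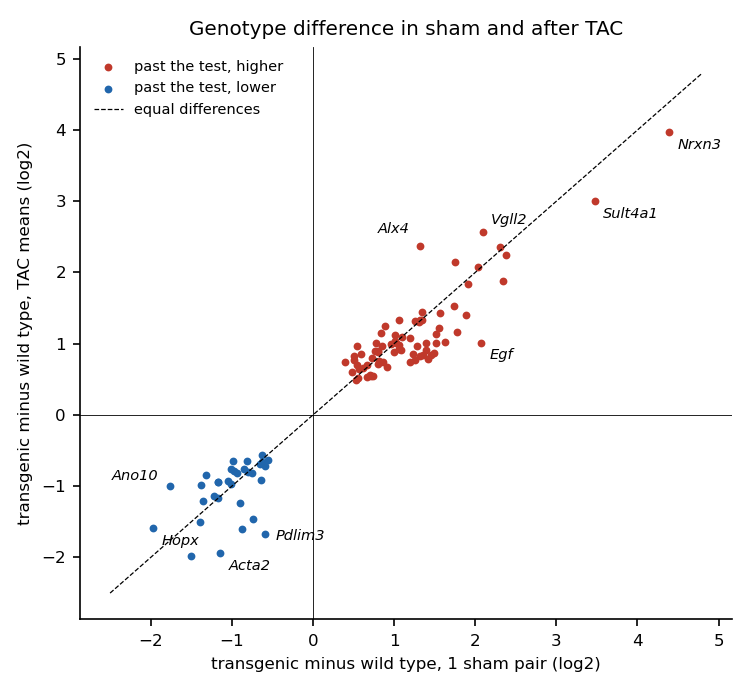
Genotype difference after TAC (log2, mean of 2 against mean of 2 arrays, vertical axis) against the difference in the sham pair (log2, 1 array each, horizontal axis) for the 106 genes that passed, with a dashed line of equal differences. Alx4 and Pdlim3 lie on the side of a larger difference after TAC, Egf, Ano10 and Nrxn3 on the side of a larger difference in sham.

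Other probes of the same genes gave a partial check of the measurement. Of the 106 genes 37 had 1 probe, and 69 had others, 122 probes in all. Of 59 other probes bright enough to pass the filter, in 44 genes, 54 had the sign of the tested probe and 43 of them had genotypes without overlap. Over all tested genes 16.1% were without overlap. These probes read the same samples on which the genes were called, so they check the probe and not the genotype difference. For Nrxn3 the other probes differed by 3.80, 1.58 and 0.08, for Vgll2 by 2.56 and 0.50 and for Mthfd2 by 0.93. The 3 bright other probes of Acta2 differed by -1.31, -1.55 and -1.92, those of Tmod4 by 1.39 and 1.39, and 1 of Myl1 by 1.38.

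Dim other probes of Hopx (5.01 to 5.37), Alx4 and Sult4a1 showed differences of 0.13, of 0.05 and 0.10, and of 0.15. The brightest probe is chosen by its mean over all 6 arrays, which favours a probe raised in 1 genotype. With the median over all probes the call ended for Hopx (-0.79, adjusted p = 0.0704), Acta2 (-1.43, 0.195), Alx4 (0.14, 0.669), Ric3 (0.13, 0.518) and Pdlim3 (-1.29, 0.0641). It also ended for Asns (0.77, 0.0676), Shmt1 (0.73, 0.0541), Cp (0.68, 0.0704), Cd74 (1.10, 0.0704) and Itgb6 (-0.54, 0.101). Among further genes that lost it were Mylk2 (adjusted p = 0.924, limma), Nrg1 (0.709), Septin3 (0.639), Smpd1 (0.54), Acsl6 (0.384), Prkg1 (0.263) and Apbb1 (0.192). So did Ptp4a3 (adjusted p = 0.143, limma), Abat (0.127), Egf (0.101), Pirt (0.0841), Tac1 (0.0841) and Myl1 (0.0833). The rises of Sult4a1 (1.65), Slc9a3 (1.15) and Ckmt1 (1.05) passed but were smaller. By that measure 46 of the 106 genes passed among 51 calls. The 5 genes with an opposite probe above the filter were Btbd11, Lrrc8a, Slc1a2, Syn2 and Wfikkn2.

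Some called genes lay next to each other by the gene order of RefSeq GRCm38.p6, and whether more did than gene order gives by chance was not tested. Smpd1 and Apbb1 on chromosome 7, both lower, and Tmprss13 and Fxyd6 on chromosome 9, both higher, had none between them. Tac1 and Asns on chromosome 6 were also next to each other and moved in opposite directions. The stretch on chromosome 9 was singled out after its values were seen. It runs from Scn4b, a sodium channel subunit, over the membrane serine protease genes Tmprss4 and Tmprss13 to Fxyd6. Scn4b had 10.64, 8.99 and 9.55 in wild type and 10.90, 10.96 and 10.37 in transgenic hearts, which overlap (1.02 ± 0.26, adjusted p = 0.141, limma).

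Tmprss4, dim in wild type, had 5.90, 5.51 and 5.53 against 7.09, 6.59 and 5.95 (0.90 ± 0.17, adjusted p = 0.0455, limma). Tmprss13 had 8.13, 7.06 and 7.77 against 9.65, 8.63 and 8.47 (1.27 ± 0.20, adjusted p = 0.0254, limma). Both had their highest value on the transgenic sham array. Il10ra, which lies between them, had 0.18 ± 0.12 (adjusted p = 0.629), and Scn2b and Fxyd2 on either side of the stretch were near 0. Tmprss13 lost its call without the wild-type sham, wild-type TAC 1 or transgenic sham array (adjusted p 0.144 to 0.289), and Tmprss4 without any 1 of the arrays other than transgenic TAC 2 (0.0626 to 0.372). By chromosome, the share of tested genes that passed reached 1.75% on chromosome 6 (10 of 573) and 1.73% on chromosome 15 (8 of 463), against 0.949% over all.

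**Figure D5:**
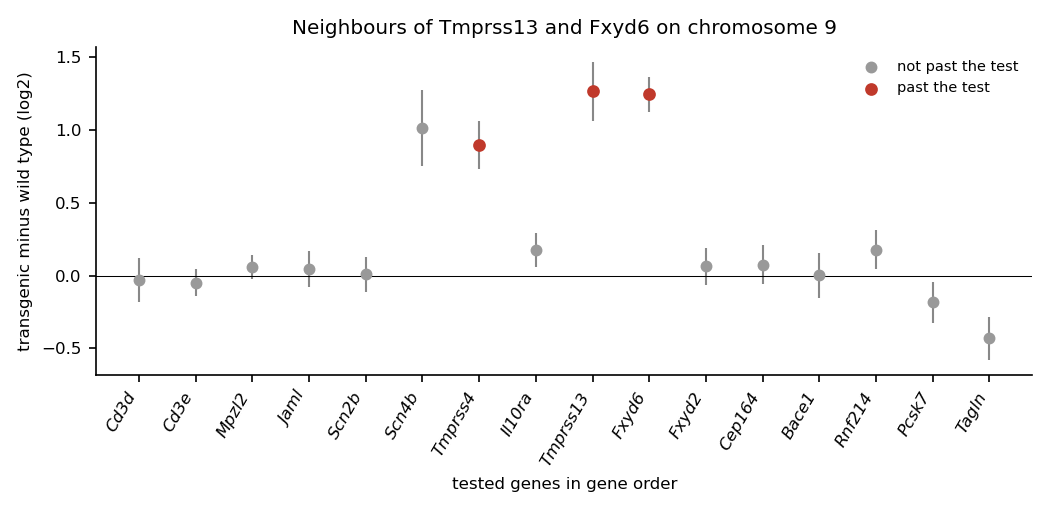
Transgenic minus wild-type difference (log2, vertical axis, bars are the SE) of tested genes in their order on chromosome 9. Tmprss4, Tmprss13 and Fxyd6, in red, passed the test at 0.90, 1.27 and 1.25, Scn4b lies at 1.02 without passing, and the nearest plotted genes Scn2b and Fxyd2 lie near 0, while Tagln at the right edge lies at -0.43.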

How the data were processed

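The authors deposited 1 linear intensity per probe and array (30.83 to 25873). The sources used here do not state how they were normalized or with which software. Sorted columns differed by at most 0.0064 (log2) from their mean, the pattern of quantile normalization, which was kept. Per the labels' protocols, DNase-treated total RNA was copied into biotinylated cRNA.

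Of 45281 probes, 34885 had 1 symbol in the platform annotation, 18 several and 10378 none. Values under 32 (12) were set to 32 before log2. The brightest probe stood for each of 19053 genes, and 11166 above the 50th percentile of probes (intensity 58.7) were tested with lmFit and eBayes (intensity trend) in limma 3.58.1 (R 4.3.3), surgery plus genotype, Benjamini-Hochberg adjusted, threshold 0.05. Errors are SE. The scripts were tested on simulated data of 11166 genes. They recovered 100% of set differences of 1 or 2 (log2) and also called 19 unchanged genes. The number of arrays, 6, limits the precision.

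Named were genes past the test, array values being given for the 12 largest rises and falls and list members past it, and, of other list members, up to 4 of smallest p (predicted genes passed over). A few others singled out after their values were seen are given as values. The members and lists were chosen with earlier results of these data known. TAC numbers did not pair arrays (correlation of deviations -0.029). Promoters are from RefSeq (GRCm38.p6), matched by symbol for 8977 genes. Alternatives covered floor, background, filter, probes, variance model, weights, Xist, samples and block.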

Additional observations from a re-analysis of the deposited data

Results flagged for a closer look

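Probes without a gene symbol were left out of the comparison of named genes. When 3361 of them that passed the filter were tested among 20803 probes, 16 differed between the genotypes (limma, Benjamini-Hochberg adjusted p under 0.05), 9 upward and 7 downward. The 3 with a rise of more than 2 stand out as signal outside the reported genes.

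The probe ILMN_1218717 had 8.23, 8.37 and 8.10 in wild type and 11.50, 12.26 and 10.69 in transgenic hearts, a rise of 3.24 ± 0.34 (adjusted p = 0.00838, limma). ILMN_1260582 had 6.54, 6.74 and 6.59 against 9.12, 9.50 and 8.23, a rise of 2.32 ± 0.29 (adjusted p = 0.0181, limma). ILMN_2904117 had 6.32, 6.28 and 6.30 against 8.73, 8.45 and 8.32, a rise of 2.20 ± 0.14 (adjusted p = 0.000764, limma). For each of them every transgenic array lay above every wild-type array, and their genes are not named here. Groups were too small for a check of a gene's outlying array within its group. Over all genes, limma's array weights were 2.02 for both sham arrays and 1.07 and 1.14 for the wild-type TAC arrays. They were 0.553 and 0.364 for the transgenic TAC 1 and TAC 2 arrays. With 1 sham array per genotype, the fit leaves the sham arrays equal and opposite residuals. Their weights are thus equal by design and do not measure each sham array on its own.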

How the results depend on the processing

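The 106 genes past the test became 56 with an absolute log2 difference of at least 1, 44 with the filter at the 75th percentile, 51 with the median over probes, 54 with Xist as a covariate, 46 with 4 group means, 25 on the TAC arrays alone and 596 with array weights (313 higher, 283 lower). Leaving out 1 array each gave 24 to 474. Without both arrays of low Xist, a fit with 1 residual degree of freedom, limma passed 0 genes (283 at an unadjusted p under 0.05). With the TAC numbers as a replicate block it passed 111, of which 99 were shared with the 106, although the numbers did not pair the arrays. The other settings (floor of 16, background subtracted, no filter, no trend, robust, and, chosen after seeing the data, without 132 genes above an intensity of 12000) gave 73 to 125. The interaction count of 0 became 5 with Xist as a covariate and 0 to 1 with 1 TAC array left out. The interaction fits with Xist or with 1 TAC array left out have 1 residual degree of freedom. No interaction could be fitted without a sham array. With the median over probes, Ano10 (0.008) and Syn2 (-0.13) changed sign. Of 106 genes, 101 kept their sign in every alternative run, Ano10, Btbd11, Sh3gl2, Slc1a2 and Syn2 being the exceptions. The cause of these changes was not tested. Dim wild-type levels near the background limit the size of many rises.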
